A study of Mus musculus with 4 samples.

Results

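The natriuretic peptide system was followed through 7 genes: the peptides Nppa, Nppb and Nppc, the receptors Npr1, Npr2 and Npr3, and the protease Corin. They were chosen by gene symbol, and are 7 of 17550 genes with a read in any library (Entrez identifiers 230899, 18158 and 18159 for the peptides in that order, 18160, 230103 and 18162 for the receptors, and 53419 for Corin). Total RNA of left ventricles was sequenced 3 days after an induced myocardial infarction in C57BL/6 mice aged 8 weeks. The groups were infarcted Neil3-/-, non-infarcted Neil3-/-, infarcted wild-type and non-infarcted wild-type tissue, with 1 library each. Per the labels all 4 groups underwent infarction, so the non-infarcted samples come from operated mice and no unoperated group was analysed here. The labels give neither the deleted part of Neil3 nor the number of mice in a library.

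The libraries held 18.2 M and 14.3 M unique reads in infarcted and non-infarcted tissue labelled Neil3-/-, and 17.3 M and 14.9 M in infarcted and non-infarcted wild-type tissue. Neil3, the DNA glycosylase named in the genotype, was higher in both libraries labelled Neil3-/-, at 18.5 and 12.0 RPKM in infarcted and non-infarcted tissue, against 3.95 and 1.83 RPKM in wild type. Reads covered 71.5% and 62.9% of its listed length in infarcted and non-infarcted tissue labelled Neil3-/-, against 73.4% and 63.4% in wild type. Coverage was thus not higher with the label Neil3-/-, although RPKM was. The gene-level value of Neil3 does not follow the label as written, but where in the gene the reads lie is not given. The label could therefore not be checked, and every genotype direction below refers to libraries labelled Neil3-/-. Each group has 1 library, so no difference has a replicate check and no test between conditions was run. Ratios carry exact 95% intervals in parentheses, which cover counting error only and compare libraries, not conditions.

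Natriuretic peptides are hormones of heart and vessel that lower blood volume and pressure. Nppa codes for atrial natriuretic peptide, stored mainly in atrial cardiomyocytes, and Nppb for brain natriuretic peptide, whose ventricular message is a long-used marker of wall stress. Both activate Npr1, a membrane guanylate cyclase that makes cGMP; Nppc codes for the C-type peptide, which acts through the related cyclase Npr2, while Npr3 has no cyclase domain and clears the peptides. Corin is a membrane serine protease of cardiomyocytes that cuts the Nppa precursor into active hormone.

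Nppa was the most abundant of the 7 genes in every library. It had 27731 reads (1805 RPKM, a read count set relative to gene length and to all reads of a library) in infarcted and 14807 reads (1228 RPKM) in non-infarcted tissue labelled Neil3-/-, against 36391 reads (2498 RPKM) in infarcted and 21556 reads (1715 RPKM) in non-infarcted wild-type tissue. Infarcted tissue was thus higher than non-infarcted tissue in both genotypes, and tissue labelled Neil3-/- lower than wild type in both regions. By RPKM it ranked 12 in infarcted and 28 in non-infarcted tissue labelled Neil3-/-, and 7 and 21 in infarcted and non-infarcted wild-type tissue, among all genes of the library.

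The infarcted over non-infarcted ratio of Nppa was 1.47 (1.44 to 1.5) in tissue labelled Neil3-/- and 1.46 (1.43 to 1.48) in wild type. The ratio between these ratios was 1.01 (0.983 to 1.04), an interval that holds 1. Against wild type, Nppa in tissue labelled Neil3-/- stood at 0.723 (0.711 to 0.734) in infarcted and 0.716 (0.701 to 0.731) in non-infarcted tissue. Nppa therefore differed by region and by genotype label in nearly the same proportion in each case.

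Atrial tissue is a second source of Nppa message. The atrial marker list (Myl7, Myl4, Sln, Bmp10 and Kcnj3) summed to 4.74 and 44.5 RPKM in infarcted and non-infarcted tissue labelled Neil3-/-, and to 6.11 and 137.8 RPKM in infarcted and non-infarcted wild-type tissue. Bmp10 was not listed in any library, and Sln, which codes for sarcolipin, was without a read in both infarcted libraries. The atrial light chain Myl7 was at 0.183 and 10.6 RPKM in infarcted and non-infarcted tissue labelled Neil3-/-, against 0.290 and 49.0 RPKM in infarcted and non-infarcted wild-type tissue. The atrial markers were lower in infarcted tissue, where Nppa was higher. Between labels in non-infarcted tissue, 4 of 4 atrial markers at 1 RPKM or more were lower with the label Neil3-/-, as Nppa was. In infarcted tissue 1 of 2 was lower. The part of atrial tissue in the infarct and genotype ratios of Nppa was not tested.

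Nppb was the second most abundant member, and the one whose infarct ratios lay on opposite sides of 1 in the genotypes. It had 7603 reads (524 RPKM) in infarcted and 6396 reads (562 RPKM) in non-infarcted tissue labelled Neil3-/-, against 17594 reads (1279 RPKM) in infarcted and 8904 reads (750.0 RPKM) in non-infarcted wild-type tissue. The infarcted wild-type library stood above the other three, and the infarcted library labelled Neil3-/- was the lowest. In bulk tissue, fewer cells of a type and less message per cell cannot be told apart.

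The infarcted over non-infarcted ratio of Nppb was 0.933 (0.903 to 0.965) in tissue labelled Neil3-/- and 1.71 (1.66 to 1.749) in wild type. Between the genotype labels the infarct ratio differed by a factor of 0.547 (0.525 to 0.571), which is -0.87 on the log2(RPKM + 1) scale. That placed Nppb 42nd from the lowest of 12716 genes, where 1.55% of genes were at least 1.5-fold lower and 0.228% at least 2-fold lower. Nppb was past the first limit and short of the second. Against wild type, Nppb in tissue labelled Neil3-/- was at 0.410 (0.399 to 0.421) in infarcted and 0.749 (0.725 to 0.773) in non-infarcted tissue.

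**Figure D1:**
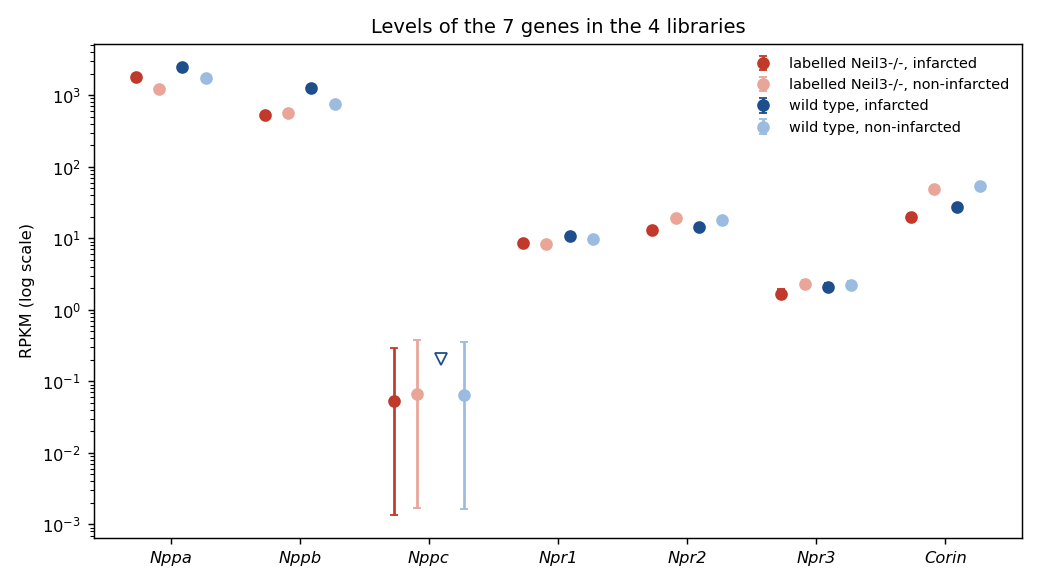
RPKM on a log scale for each of the 7 genes in infarcted and non-infarcted tissue labelled Neil3-/- (red, pale red) and wild type (blue, pale blue), with exact Poisson 95% intervals. The open triangle is the upper limit of Nppc in infarcted wild-type tissue, where no read was found; Nppa and Nppb lie far above the receptors, and Nppc lies under 0.1 RPKM in each library with a read.

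Nppa and Nppb lie side by side in the RefSeq gene order of mouse chromosome 4, with no protein-coding gene between them. Their promoter windows are shown because the peptides share a locus but differed in their infarct ratio. Each runs from 250 bases before to 50 bases after the RefSeq start, 5′ to 3′ on the plus strand (GRCm38.p6), at chr4:148000472-148000771 for Nppa and chr4:147985650-147985949 for Nppb. Capitals mark matches, on either strand, to GATAA (bound by GATA factors), CATTCC (the M-CAT box bound by TEAD factors), AAGTG (the Nkx2-5 element), AGGTGTGA (a T-box site) and TATAAA.
Nppa: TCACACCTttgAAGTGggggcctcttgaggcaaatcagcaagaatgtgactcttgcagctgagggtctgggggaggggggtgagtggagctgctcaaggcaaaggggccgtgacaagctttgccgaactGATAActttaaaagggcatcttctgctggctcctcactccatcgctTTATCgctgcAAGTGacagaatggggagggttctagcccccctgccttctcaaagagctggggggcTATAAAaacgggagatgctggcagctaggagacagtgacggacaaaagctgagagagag
Nppb: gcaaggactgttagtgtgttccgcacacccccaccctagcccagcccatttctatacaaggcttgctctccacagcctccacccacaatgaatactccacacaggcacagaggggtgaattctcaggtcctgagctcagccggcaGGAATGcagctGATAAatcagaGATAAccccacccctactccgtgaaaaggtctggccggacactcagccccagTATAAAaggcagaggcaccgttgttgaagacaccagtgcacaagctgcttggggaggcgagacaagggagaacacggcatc

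Both windows hold 2 GATAA matches, at 121 and 75 bases before the start in Nppa and at 94 and 83 bases in Nppb. Each holds 1 TATAAA match, at 9 bases before the start in Nppa and 31 bases in Nppb. All distances are from the RefSeq start, and TATAAA does not lie equally far from it in both genes. GATAA was present in 25.4% and TATAAA in 13.6% of 32851 promoter windows. The windows differ in the other motifs: Nppa holds AAGTG at 239 and 65 bases before the start and AGGTGTGA at 250 bases, while Nppb holds CATTCC, as its reverse complement GGAATG, at 105 bases. Of all windows 46.4% held AAGTG, 1.28% AGGTGTGA and 14.7% CATTCC. No motif of this set overlapped another in the Nppa and Nppb windows. In the rat genes, the Nkx2-5 element is a known part of the Nppa promoter and the M-CAT box of the Nppb promoter. These matches describe letters and do not show binding.

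The protein-coding neighbours of the pair given here, chosen by position, lay above Nppb in their genotype ratio in infarcted tissue, as nearly all genes did. On the Nppb side lie 2510039O18Rik, Plod1, a collagen lysyl hydroxylase, and Mfn2, a mitochondrial fusion protein. On the Nppa side lie the chloride transporter Clcn6 and the angiotensin receptor partner Agtrap. In infarcted tissue the ratio of the library labelled Neil3-/- to wild type was 1.02 for 2510039O18Rik, 0.964 for Plod1, 0.670 for Mfn2, 0.682 for Clcn6 and 0.944 for Agtrap. None of these 5 lay as low as Nppb, at 0.410, but only 0.0963% of all genes lay lower than Nppb. This count therefore does not set the neighbours apart from other genes. On the log2(RPKM + 1) scale Mfn2 was at -0.573 and Clcn6 at -0.454. Both lay below Corin at -0.449, under which 3.55% of genes lay.

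Because both peptides are set to their own length, their RPKM may be divided within a library. Nppa was 3.44 times Nppb (3.36 to 3.53) in infarcted and 2.19 times (2.12 to 2.25) in non-infarcted tissue labelled Neil3-/-, against 1.95 times (1.92 to 1.99) in infarcted and 2.29 times (2.23 to 2.34) in non-infarcted wild-type tissue. The infarcted library labelled Neil3-/- stood apart, with more Nppa for each unit of Nppb than the other libraries. Between infarcted and non-infarcted tissue the proportion differed by a factor of 1.58 (1.52 to 1.64) with the label Neil3-/- and of 0.854 (0.829 to 0.881) in wild type. A scaling of whole libraries leaves these proportions as they are.

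Nppc was at the edge of detection. It had 1 read in infarcted tissue labelled Neil3-/-, 1 in non-infarcted tissue labelled Neil3-/-, none in infarcted wild-type tissue and 1 in non-infarcted wild-type tissue. A count of 3 reads would be 0.158 to 0.201 RPKM at these depths, so every library was under that floor and no ratio is given. Expression of Nppc by a small group of cells could not be detected at this depth.

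Npr2, the receptor for the C-type peptide, was the most abundant receptor. It was at 13.2 RPKM (879 reads) in infarcted and 19.2 RPKM (1006 reads) in non-infarcted tissue labelled Neil3-/-, against 14.5 RPKM (917 reads) in infarcted and 17.8 RPKM (969 reads) in non-infarcted wild-type tissue. Both infarcted libraries lay below both non-infarcted ones, at ratios of 0.686 (0.626 to 0.752) with the label Neil3-/- and 0.817 (0.745 to 0.895) in wild type. The genotype ratio was 0.909 (0.828 to 0.998) in infarcted and 1.08 (0.990 to 1.18) in non-infarcted tissue, where the interval holds 1. The infarct ratio with the label Neil3-/- was 0.840 of that in wild type (0.738 to 0.957).

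Npr1, the shared receptor of the Nppa and Nppb hormones, was split by genotype label more than by region. It was at 8.54 RPKM (632 reads) in infarcted and 8.23 RPKM (478 reads) in non-infarcted tissue labelled Neil3-/-, against 10.7 RPKM (751 reads) in infarcted and 9.73 RPKM (589 reads) in non-infarcted wild-type tissue. Both libraries labelled Neil3-/- were below both wild-type libraries, at 0.798 (0.717 to 0.888) of wild type in infarcted and 0.846 (0.748 to 0.956) in non-infarcted tissue. The infarct ratios, 1.04 (0.920 to 1.17) with the label Neil3-/- and 1.10 (0.986 to 1.23) in wild type, have intervals that hold 1. Their sign depends on scaling: with TMM factors, which centre the bulk of genes, the log2 ratios were -0.18 and -0.09.

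Npr3, the clearance receptor, had the fewest reads among the receptors. It was at 1.68 RPKM (212 reads) in infarcted and 2.28 RPKM (226 reads) in non-infarcted tissue labelled Neil3-/-, against 2.10 RPKM (251 reads) in infarcted and 2.23 RPKM (230 reads) in non-infarcted wild-type tissue. The infarcted library labelled Neil3-/- was the lowest, and the other libraries were close to each other. Its ratio was 0.737 (0.608 to 0.892) to non-infarcted tissue of the same label and 0.801 (0.664 to 0.966) to infarcted wild-type tissue. The wild-type infarct ratio, 0.942 (0.784 to 1.13), and the genotype ratio in non-infarcted tissue, 1.02 (0.849 to 1.24), had intervals that hold 1.

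Set beside each other within a library, Npr1 was 5.08 times Npr3 (4.34 to 5.96) in infarcted and 3.60 times (3.07 to 4.24) in non-infarcted tissue labelled Neil3-/-, against 5.10 times (4.41 to 5.91) in infarcted and 4.36 times (3.74 to 5.10) in non-infarcted wild-type tissue. The intervals of the infarcted and non-infarcted libraries do not overlap with the label Neil3-/- but overlap in wild type. Npr2 was 1.54 times Npr1 (1.39 to 1.71) in infarcted and 2.34 times (2.09 to 2.61) in non-infarcted tissue labelled Neil3-/-, against 1.36 times (1.23 to 1.495) in infarcted and 1.83 times (1.65 to 2.03) in non-infarcted wild-type tissue. Infarcted tissue thus held less Npr2 message for each unit of Npr1 message than non-infarcted tissue in both genotypes.

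Corin was the member with the lowest infarct ratio in both genotypes. It was at 20.0 RPKM (1780 reads) in infarcted and 48.5 RPKM (3388 reads) in non-infarcted tissue labelled Neil3-/-, against 27.7 RPKM (2336 reads) in infarcted and 53.9 RPKM (3927 reads) in non-infarcted wild-type tissue. The infarcted libraries were lower than the non-infarcted ones by 2.42-fold (2.29 to 2.57) with the label Neil3-/- and by 1.95-fold (1.85 to 2.05) in wild type. Only 3.86% and 4.23% of genes had a lower infarct ratio in these comparisons. Corin in tissue labelled Neil3-/- stood at 0.723 (0.679 to 0.769) of wild type in infarcted and 0.899 (0.859 to 0.942) in non-infarcted tissue.

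Nppa and Corin code for a precursor and its processing enzyme, and their messages lay far apart in infarcted tissue. Nppa RPKM was 90.3 times that of Corin in the infarcted library labelled Neil3-/- (86.0 to 94.7) and 25.3 times in the non-infarcted one (24.4 to 26.3). In wild type it was 90.3 times in infarcted (86.6 to 94.2) and 31.8 times in non-infarcted tissue (30.7 to 32.9). The proportion was alike in the infarcted libraries of both genotypes, and lower in both non-infarcted libraries.

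The order of the levels was the same in each of the 4 libraries: Nppa, Nppb, Corin, Npr2, Npr1, Npr3 and Nppc, with Nppc under the floor. No pair of neighbours in that order had overlapping counting intervals within a library, other than those with Nppc, which were not compared. Reads covered at least 98.2% of the listed gene length for Nppa, 97.4% for Npr1, 99.2% for Npr2 and 99.1% for Corin, but 69.7% to 77.3% for Npr3 and 87.7% to 91.8% for Nppb. Spag8, which overlaps Npr2 in the RefSeq table, had 3, 1, 1 and 1 reads in infarcted and non-infarcted tissue labelled Neil3-/- and infarcted and non-infarcted wild-type tissue; whether strand was used in counting is not given. The genes that overlap Npr3 and Corin there were not listed in the files.

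**Figure D2:**
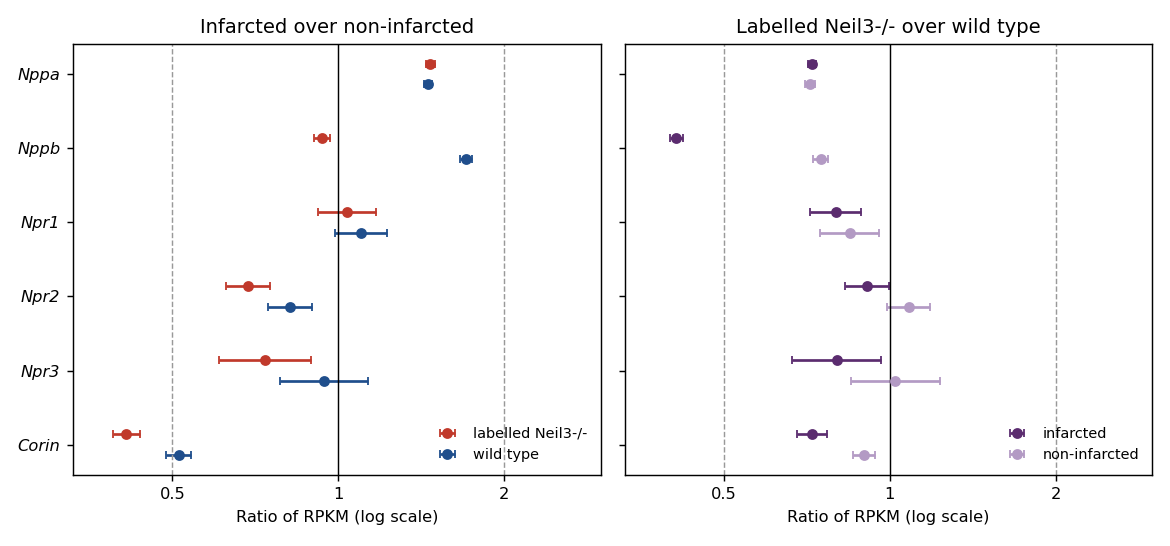
Ratio of RPKM on a log scale with exact 95% counting intervals, for infarcted over non-infarcted tissue (left, by genotype label) and for tissue labelled Neil3-/- over wild type (right, by region), with dashed lines at 0.5 and 2. Nppb is the member whose infarct ratios lie on opposite sides of 1, at 0.933 and 1.71, and Corin lies farthest left in the left panel.

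A gene was counted as apart when its log2 ratio of (RPKM + 1) reached 2-fold and it had at least 1 RPKM in a library compared; 6 of the 7 members passed this minimum and Nppc did not. In infarcted against non-infarcted tissue labelled Neil3-/-, 1 of 6 members (Corin, lower) was counted, where 14.3% of 12563 genes were, 8.2% higher and 6.07% lower. In wild type 0 of 6 were counted, against 9.8% of 12515 genes, 6.21% higher and 3.6% lower. With a limit of 1.5-fold, 1 of 6 (Corin) was counted with the label Neil3-/-, against 37.4% of genes, and 2 of 6 in wild type (Nppb higher, Corin lower), against 31.1%. With 6 members these shares lie near or below the background. The median log2 ratio of the 6 members was -0.20 with the label Neil3-/- and 0.03 in wild type, beside 0.24 and 0.21 over all genes.

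The split of counted genes by direction varied with the scaling. As deposited, 57.5% of them were higher in infarcts with the label Neil3-/- and 63.3% in wild type, against 34.1% and 37.2% with TMM factors. These moved the median of all genes by -0.21 and -0.20. With TMM factors Nppa was higher in infarcted tissue in both genotypes, at log2 ratios of RPKM of 0.32 each, and Nppb was at -0.34 with the label Neil3-/- and 0.55 in wild type. Corin was at -1.51 and -1.19, past 2-fold in both.

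Between tissue labelled Neil3-/- and wild type, 1 of 6 members (Nppb, lower) was counted in infarcted tissue, where 0.489% of 12464 genes were, 0.249% higher and 0.241% lower. Only 0.0963% of genes had a lower ratio than Nppb there. None was counted in non-infarcted tissue, against 0.442% of 12226 genes, 0.254% higher and 0.188% lower. For the infarct ratio between genotype labels, 0 of 6 were counted, against 0.527% of 12716 genes, 0.299% higher and 0.228% lower. With a limit of 1.5-fold, Nppb was the 1 member counted in infarcted tissue and for the infarct ratio between labels, against 3.06% and 2.67% of genes, and none was in non-infarcted tissue, against 1.75%. The median log2 ratio of the members was -0.37 in infarcted and -0.18 in non-infarcted tissue, beside 0.02 and 0.01 over all genes. All 6 members were lower in infarcted tissue labelled Neil3-/- as deposited, with intervals below 1, while after division by cardiomyocyte genes (given below) this held for Nppb alone. In non-infarcted tissue 4 of 6 had an interval below 1. Such intervals were found for 19.4% of genes in infarcted and 10.8% in non-infarcted tissue, and they narrow with read number, which is high for the peptides.

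**Figure D3:**
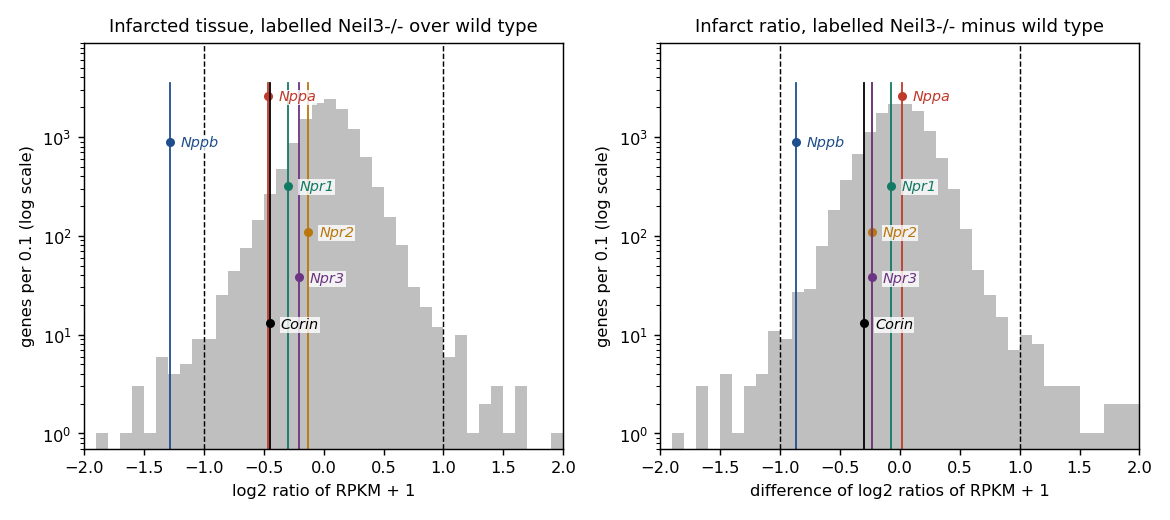
Number of genes per 0.1 log2 units (log scale) by ratio in infarcted tissue labelled Neil3-/- over wild type (left) and by the difference of infarct ratios (right); dashed lines mark 2-fold, coloured lines the 6 members, and genes beyond 2 log2 units are not drawn. Nppb lies in the left tail of both panels, at -1.29 and -0.87, while the other members lie between -0.47 and 0.01.

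Cardiomyocyte genes differed between the libraries as well, and they mark the cells that make Nppa, Nppb and Corin. The geometric mean of 10 such genes (Myh6, Myl2, Tnni3, Tnnt2, Tnnc1, Actc1, Actn2, Ttn, Ryr2 and Pln) was 514 RPKM in infarcted and 1608 RPKM in non-infarcted tissue labelled Neil3-/-, against 765 RPKM in infarcted and 1735 RPKM in non-infarcted wild-type tissue. Infarcted tissue was lower by 3.13-fold with the label Neil3-/- and by 2.27-fold in wild type. In infarcted tissue, the library labelled Neil3-/- was at 0.672 of wild type.

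Set against this mean, Corin differed least of the members between regions, by 1.29-fold with the label Neil3-/- and 1.16-fold in wild type. It was at 3.89% of the cardiomyocyte mean in infarcted and 3.02% in non-infarcted tissue labelled Neil3-/-, against 3.62% in infarcted and 3.11% in non-infarcted wild-type tissue. Nppa was at 351% and 76.4% of the mean in infarcted and non-infarcted tissue labelled Neil3-/-, against 326% and 98.8% in infarcted and non-infarcted wild-type tissue. The infarcted libraries thus held 4.597 times and 3.30 times as much Nppa for each unit of cardiomyocyte message as the non-infarcted ones.

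For Nppb the values were 101.9% and 34.9% of the cardiomyocyte mean in infarcted and non-infarcted tissue labelled Neil3-/-, against 167% and 43.2% in infarcted and non-infarcted wild-type tissue. On this scale Nppb was higher in infarcted tissue in both genotypes, by 2.92-fold with the label Neil3-/- and by 3.87-fold in wild type. It remained lower in infarcted tissue labelled Neil3-/- than in wild type, at a log2 ratio of -0.71, and Nppa did not, at 0.10. After this division 4 of 6 members were past 2-fold with the label Neil3-/- and 3 of 6 in wild type, all higher in infarcts, against 80.6% of genes (80.4% higher) and 63.9% (63.7% higher). Between labels in infarcted tissue 0 of 6 were, against 3.67% of genes. A higher value on this scale was thus common to most genes. The part of cardiomyocyte content in the ratios as deposited was not tested.

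**Figure D4:**
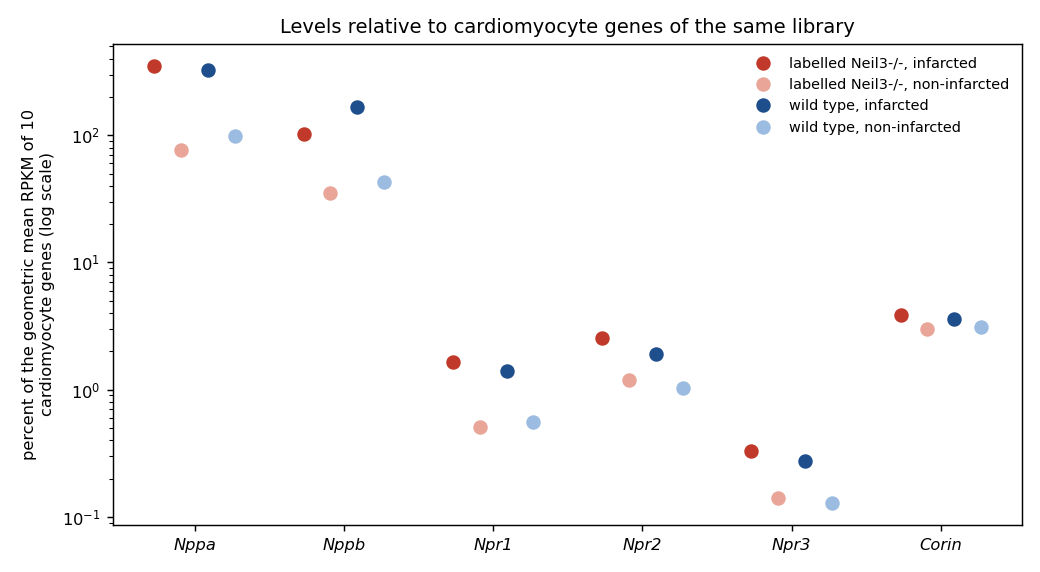
RPKM of each member as a percentage of the geometric mean RPKM of 10 cardiomyocyte genes in the same library (log scale), by library. Corin lies between 3.02% and 3.89% in all 4 libraries, and Nppa between 76.4% and 351%.

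Other cell type markers differed between regions to unlike degrees. Over all genes the median log2 ratio was 0.24 with the label Neil3-/- and 0.21 in wild type. At least 2-fold higher in infarcts were 8.2% and 6.21% of all genes, and 6.07% and 3.6% lower. Of 7 leukocyte genes, 6 passed 2-fold in each genotype, all higher in infarcts, with medians of 1.57 with the label Neil3-/- and 1.54 in wild type. Endothelial genes, whose cells carry Npr1 and Npr3, had medians of 0.63 and 0.65, and the sialomucin Emcn alone passed 2-fold, with the label Neil3-/- (1 of 6 genes, and 0 of 6 in wild type). Fibroblast genes had medians of 0.47 and 0.13, the latter below that of all genes. Of these 8 the collagen Col1a1 alone passed 2-fold, again with the label Neil3-/-. Smooth muscle and pericyte genes had medians of 0.57 and 0.38, with 2 of 6 higher with the label Neil3-/- and 1 of 6 lower in wild type. Below 0 were 1 of 6 endothelial and 2 of 6 smooth muscle and pericyte genes in each genotype. The same held for 2 of 8 fibroblast genes with the label Neil3-/- and 4 of 8 in wild type. Of 6 mesothelial and epicardial genes only Krt19 and Wt1 reached 1 RPKM, and their sum over the list was 4.97 and 3.63 RPKM in infarcted and non-infarcted tissue labelled Neil3-/-, against 8.27 and 3.96 RPKM in wild type.

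Between genotype labels in infarcted tissue, the medians were 0.33 for leukocyte, -0.07 for endothelial, 0.44 for fibroblast and 0.13 for smooth muscle and pericyte genes, with no gene of these 4 lists at least 2-fold apart. The mesothelial and epicardial median was -0.52 over 2 genes, of which the keratin Krt19 was 3.27-fold lower, at 1.46 RPKM with the label Neil3-/- and 4.76 RPKM in wild type. Cardiomyocyte genes were at -0.64, with 10 of 10 below 0 and none at least 2-fold apart. Their part in the genotype ratios of the receptors was not tested.

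Among enzymes that process or clear the peptides, Furin and Dpp4 were higher and Pcsk6, Mme and Ide were lower in infarcted tissue of both genotypes. Of 5 genes (Furin, Pcsk6, Mme, Ide and Dpp4), none was at least 2-fold apart on the log2(RPKM + 1) scale in any comparison. Furin, which cuts the Nppb and Nppc precursors, was at 75.1 and 57.1 RPKM in infarcted and non-infarcted tissue labelled Neil3-/-, against 82.8 and 58.1 RPKM in infarcted and non-infarcted wild-type tissue. Pcsk6, the convertase that activates Corin, was at 8.50 and 15.8 RPKM in infarcted and non-infarcted tissue labelled Neil3-/-, against 8.91 and 11.2 RPKM in wild type. Pcsk6 was thus lower in both infarcted libraries, by 1.85-fold (1.68 to 2.05) and 1.26-fold (1.13 to 1.40). Mme, which codes for the peptide-degrading neprilysin, was at 0.946 and 2.39 RPKM in infarcted and non-infarcted tissue labelled Neil3-/-, against 0.533 and 1.36 RPKM in wild type. Its RPKM was 2.53-fold lower (1.90 to 3.40) and 2.56-fold lower (1.73 to 3.83) in infarcted tissue, which the added 1 RPKM understates at such low levels. Dpp4, a dipeptidyl peptidase that trims the Nppb hormone, was likewise low, and its RPKM was 2.15-fold higher (1.47 to 3.20) and 1.87-fold higher (1.20 to 2.99) in infarcted tissue.

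Downstream of the receptors, 14 of 17 cGMP effectors and phosphodiesterases reached 1 RPKM. In each genotype 1 of 14 was at least 2-fold higher (Pde1a) and 1 of 14 at least 2-fold lower (Pde1c) in infarcted tissue. These counts lie near the background, where 14.3% of genes with the label Neil3-/- and 9.8% in wild type were apart in either direction. The list medians were 0.23 with the label Neil3-/- and 0.10 in wild type, beside 0.24 and 0.21 over all genes. These paralogous calcium-dependent phosphodiesterases differed in opposite directions. Pde1a was at 11.4 and 4.12 RPKM in infarcted and non-infarcted tissue labelled Neil3-/-, against 8.59 and 3.70 RPKM in wild type. Pde1c was at 3.53 and 10.4 RPKM in infarcted and non-infarcted tissue labelled Neil3-/-, against 4.68 and 13.6 RPKM in wild type. Pde3a, the cGMP-inhibited enzyme of cardiac muscle, was lower in infarcted tissue by 1.77-fold (1.59 to 1.96) and 1.72-fold (1.56 to 1.9), while Vasp, an actin regulator and substrate of cGMP-dependent kinase, was higher by 1.76-fold (1.65 to 1.88) and 1.92-fold (1.79 to 2.05). No gene of this list was at least 2-fold apart between genotype labels.

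Of 14 other guanylate cyclase genes, ligands and nitric oxide synthases, only Gucy1a3, Gucy1b3 and Nos3 reached 1 RPKM. The soluble cyclase subunits Gucy1a3 and Gucy1b3 were at 4.73 and 8.65 RPKM in infarcted tissue labelled Neil3-/-, against 3.88 and 7.82 RPKM in infarcted wild-type tissue. The endothelial synthase Nos3 was higher in infarcted tissue by 1.59-fold (1.46 to 1.73) with the label Neil3-/- and 1.83-fold (1.69 to 1.97) in wild type. Ostn, the musclin gene whose product binds Npr3, was under 0.1 RPKM in every library.

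The 14 transcription factors known to act on Nppa or Nppb were mostly lower in infarcted tissue. Their medians were -0.42 with the label Neil3-/- and -0.41 in wild type, beside 0.24 and 0.21 over all genes. Below 0 were 13 and 12 of 14. At least 2-fold lower on the log2(RPKM + 1) scale were 1 and 0 of 14, against 6.07% and 3.6% of all genes. The cardiomyocyte list lay lower, at medians of -1.52 and -1.29. The part of cardiomyocyte content in these ratios was not tested. Myocd, the cofactor of serum response factor, was at 7.80 and 21.0 RPKM in infarcted and non-infarcted tissue labelled Neil3-/-, against 14.8 and 24.9 RPKM in wild type. On plain RPKM, Tbx5 was lower in infarcted tissue by 2.19-fold (1.86 to 2.58) and 2.09-fold (1.79 to 2.44), Nkx2-5 by 1.71-fold (1.56 to 1.87) and 1.33-fold (1.23 to 1.44), and Hand2 by 1.76-fold (1.62 to 1.92) and 1.47-fold (1.35 to 1.601). In infarcted tissue the list had a median of -0.16 for the label Neil3-/- over wild type, with 12 of 14 below 0. There 0 of 14 were at least 2-fold apart. At least 1.5-fold lower were 2 of 14 (Myocd and Gata4), where 193 of 12464 genes were. Gata4 in tissue labelled Neil3-/- was at 0.597 (0.565 to 0.631) of wild type in infarcted and 0.856 (0.812 to 0.901) in non-infarcted tissue.

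Other cardiac stress genes were mixed. Xirp2, an actin-binding repeat protein named after its values were seen, was higher in infarcted tissue of both genotypes, by 1.39-fold (1.38 to 1.41) with the label Neil3-/- and 1.53-fold (1.51 to 1.54) in wild type, close to Nppa. It was the 1 gene of 7 above 0 with the label Neil3-/-, while 3 of 7 were above 0 in wild type. The list medians were -0.59 with the label Neil3-/- and -0.08 in wild type, and Myh7 was the 1 gene of 7 at least 2-fold lower in infarcted tissue in each. Myh7, the slow myosin heavy chain, was at 30.5 and 85.9 RPKM in infarcted and non-infarcted tissue labelled Neil3-/-, against 64.7 and 158 RPKM in wild type. Ankrd1, a titin-binding stress protein, was at 1083 and 1632 RPKM in infarcted and non-infarcted tissue labelled Neil3-/-, against 1885 and 1994 RPKM in wild type. Acta1, the skeletal actin re-expressed under load, was lower in infarcted tissue by 1.93-fold (1.89 to 1.96) and 1.54-fold (1.502 to 1.58), and Csrp3, a muscle LIM protein, by 1.65-fold (1.61 to 1.70) and 1.10-fold (1.08 to 1.13). Between labels in infarcted tissue, 6 of 7 were lower with the label Neil3-/-, with a median of -0.56, and Acta1 was higher. Myh7, at 0.472 (0.453 to 0.492) of wild type, was at least 2-fold lower there, as were 0.241% of genes. At least 1.5-fold lower were 3 of 7, where 193 of 12464 genes were. The infarct ratio of all 7 was lower with the label Neil3-/- than in wild type, as it was for Nppb, and none by 2-fold. The median difference of these infarct ratios was -0.35. The same held for 10 of 10 cardiomyocyte genes, with a median of -0.48, beside a median of -0.00 over all genes.

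**Figure D5:**
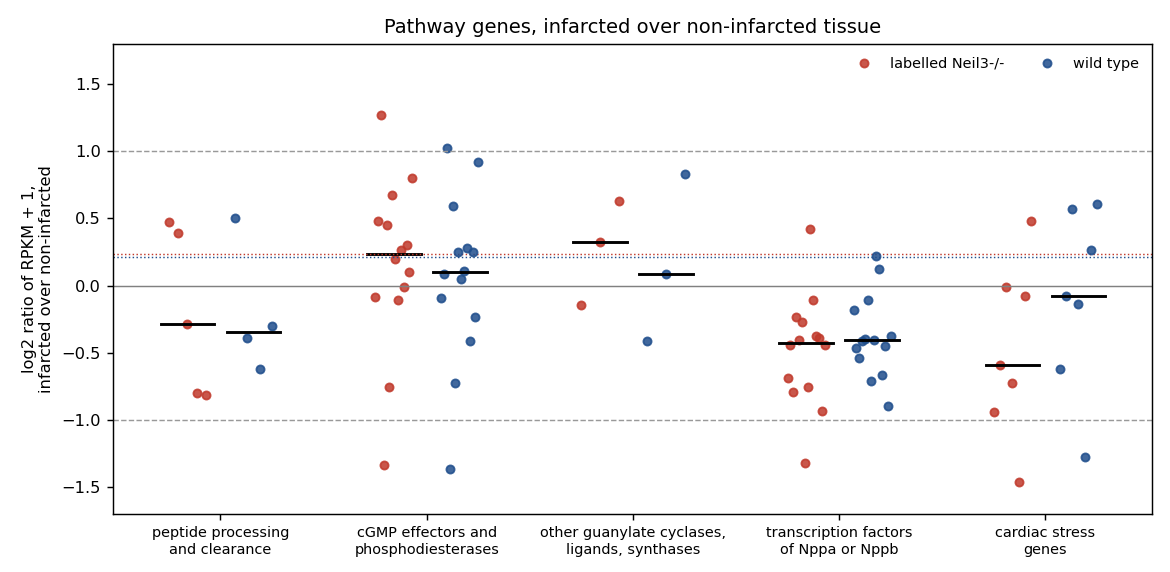
Log2 ratio of (RPKM + 1), infarcted over non-infarcted tissue, for the pathway and stress genes at 1 RPKM or more, by list and genotype label; black bars are list medians, dotted lines the medians of all genes (0.24 and 0.21) and dashed lines mark 2-fold. Transcription factors lie mostly below 0 in both genotypes, and cGMP effectors on both sides of it.

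The genes whose values across the 4 libraries were most like each member were found by Euclidean distance of centred log2(RPKM + 1) values, among 9616 genes at 5 RPKM or more in some library. Over only 4 libraries such likeness is a description. Nearest to Corin were Rbm24, a splicing regulator of muscle, at 0.021, Gpsm1 at 0.028 and the heme synthesis enzyme Alas1 at 0.041, where the median gene was at 1.39. Nearest to Nppb were Gm15427 at 0.268, Rasl11b at 0.343 and the oxygen-sensing prolyl hydroxylase Egln3 at 0.400, against a median of 1.08. Nppa had Foxs1 at 0.123, Rpp30 at 0.134 and the kinase Pim1 at 0.143, against a median of 0.705. Nppb was 3332nd from Nppa at 0.618, while Nppa at that same distance was 29th from Nppb.

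Egln3 and Rasl11b were picked by their likeness to Nppb, so their peak in infarcted wild-type tissue follows from that choice. Egln3 was at 38.5 and 40.3 RPKM in infarcted and non-infarcted tissue labelled Neil3-/-, against 70.4 and 41.8 RPKM in infarcted and non-infarcted wild-type tissue. Rasl11b was at 38.7 and 37.7 RPKM in infarcted and non-infarcted tissue labelled Neil3-/-, against 71.9 and 42.5 RPKM in wild type. Nearest to Npr2 were Cradd at 0.019, the interferon gamma receptor chain Ifngr2 at 0.023 and March2 at 0.027, and nearest to Npr1 were Tmub1 at 0.037, Vsig2 at 0.048 and Hspbp1 at 0.053.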

How the data were processed

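The deposited files give, per the file headers, unique read counts per gene, RPKM, and coverage in percent of gene length; only genes with a read are listed. RPKM were deposited by the authors and equal reads divided by listed length and library total, with a largest relative error of 5.11e-15. The submitters' processing notes name build mm9; the sources used here do not give aligner, counting tool, strand use or annotation. A gene not listed was taken as 0 reads.

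Log2 ratios used RPKM + 1, for genes at 1 RPKM or more in a library compared. Ratio intervals are exact Clopper-Pearson or, between ratios, exact conditional 95% intervals (scipy 1.17.1, R 4.3.3). TMM factors came from edgeR 4.0.16 and median-ratio factors from DESeq2 1.42.0; no test was run, since each group has 1 library, and an additive model of genotype and region (1 residual degree of freedom) was not fitted. The calculation was tested on data simulated with counting error alone, the error that the intervals assume. These data held no variation between mice or libraries, so that variation was not tested. Promoters are from RefSeq (GRCm38.p6) and matched all 7 members; that table matched 99.4% of gene identifiers, and its coordinates were not mixed with mm9.

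The members and the 12 gene lists were chosen with earlier results of these data known. Named genes are the members, Neil3, up to 4 genes per list with the largest ratio, and the 3 nearest genes of each member at 5 RPKM or more; the chromosome neighbours were added later, by position, and 1 of them is not reported here. Alternatives were a pseudocount of 0.1, no filter, both scalings, totals without ribosomal and small noncoding RNA, a 1.5-fold limit and division by the cardiomyocyte list.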

Additional observations from a re-analysis of the deposited data

Results flagged for a closer look

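The infarcted over non-infarcted ratio of Nppb lay below 1 with the label Neil3-/- (0.933, 0.903 to 0.965) and above 1 in wild type (1.71, 1.66 to 1.749), with counting intervals that exclude 1 on both sides. The ratio between them was 0.547 (0.525 to 0.571). Divided by the cardiomyocyte list, both infarct ratios of Nppb were above 1, at log2 ratios of 1.54 and 1.95, and their difference was -0.41, short of 1.5-fold, against -0.87 as deposited. With 1 library per group the difference between genotypes was not tested.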

How the results depend on the processing

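Of 30 ratios (6 members in 5 comparisons), 30 stayed within their counting interval with a pseudocount of 0.1 and 30 with totals without ribosomal and small noncoding RNA, while 11 moved beyond it under each of TMM and median-ratio scaling. Divided by the cardiomyocyte list, 4 stayed, 25 moved and 1 reversed, and 16 had another sign than as deposited, Corin in both infarct comparisons among them. The count of members at least 2-fold apart was 1 for the wild-type infarct comparison under TMM and under median-ratio scaling (Corin, lower), against 0 as deposited. With a 1.5-fold limit it was 2 there (Nppb higher, Corin lower) and 1 for the infarct ratio between genotype labels (Nppb, lower). With the same division 4 members were counted in the infarct comparison with the label Neil3-/- and 3 in wild type, all higher, and 0 in infarcted tissue between genotype labels; Corin with the label Neil3-/- reversed, at a log2 ratio of 0.36. Counts over all genes reached 1895, 141, 118 and 199 with a pseudocount of 0.1, for the wild-type infarct, both genotype comparisons and the infarct ratio between labels, against 1227, 61, 54 and 67. With the 1.5-fold limit they were 4703 for the infarct comparison with the label Neil3-/- (1792 at 2-fold) and 3894, 381, 214 and 339 for the others, and divided by the cardiomyocyte list 10625, 8092, 484 (infarcted tissue between labels) and 205 (infarct ratio between labels). Without the filter the members' counts were as reported in all 5 comparisons. No paired analysis was possible because each group has 1 library and the labels give no replicate numbers. At these depths Nppc could not be compared, and Npr3 rests on 212 to 251 reads.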
